A study of Mus musculus with 4 samples.

Results

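Metallothioneins and oxidative stress enzymes of the mouse colon are described here through 9 genes, chosen by name: Mt1, Mt2, Hmox1, Nqo1, Gclc, Gclm, Txnrd1, Srxn1 and Gpx2. They are 9 of the 22160 genes measured in the series and were read by 11 probes, with 2 probes each for Mt1 and Hmox1. The study asked how loss of group X secreted phospholipase A2, the enzyme encoded by Pla2g10, alters colitis brought on by dextran sulfate sodium (DSS), a polymer that injures the colon lining. It holds 4 single-colour Agilent arrays, 1 for each group: C57BL/6 wildtype (WT) mice left naive, X-KO mice (Pla2g10-/-, here KO) left naive, WT mice on 1% DSS in the drinking water until day 7, and KO mice on the same DSS course. Mice of all groups were 9-week-old males, if the labels' age and sex entries are read as exchanged, while the housing notes give 8 weeks. The RNA on an array was a mix from 3 mice. A ratio of 2 arrays therefore has no replicates behind it and gets no p-value. Colon tissue was used whole or in part, as the labels do not say which, and whether the deletion spares any tissue was not given in the sources used here.

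Every level below is a relative signal, the background-subtracted spot intensity divided by the array's 75th percentile, which thus equals 1. The error given with a value is the scanner software's spot error, which was 10% to 10.9% of the signal for these probes. It covers the noise of a spot, not the spread between mice, and amounts to 0.20 to 0.22 on the log2 scale for a ratio of 2 arrays. Probes differ in brightness for reasons unrelated to abundance, so levels were compared between arrays and not between genes. Pla2g10, the deleted gene, had relative signals of 15.8 in naive WT, 19.0 in DSS WT, 1.69 in naive KO and 0.993 in DSS KO, in the direction of the labels, though whether its probe lies in the deleted part was not given. All 12 epithelial markers, such as Epcam and Vil1, were well above background on all 4 arrays.

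Cells meet oxidants and reactive metals with a set of inducible proteins. The transcription factor NRF2 (gene Nfe2l2) is held in check by KEAP1, and on release it raises enzymes that make glutathione, reduce thioredoxin, quinones and peroxides, and break down haem. Metallothioneins are small cysteine-rich proteins that bind zinc and copper and are induced by the metal-sensing factor MTF1, glucocorticoids and cytokines. In the gut, GPX2 is the glutathione peroxidase typical of the epithelium, and metallothionein is abundant in epithelial cells.

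Of the 9 genes, each read by its brightest probe, Hmox1 alone passed 2-fold, and it was higher with DSS in both genotypes (WT 2.13-fold, KO 3.52-fold). This is 1 of 9 in WT and 1 of 9 in KO, where 3.44% and 5.67% of all genes were 2-fold higher. No member was 2-fold lower with DSS, against 5.14% of all genes in WT and 5.0% in KO. The DSS array exceeded the naive one 1.81-fold for Gpx2 in WT and 1.21-fold in KO. The glutathione-making, thioredoxin-linked and quinone-reducing enzymes stayed between log2 ratios of -0.66 and 0.37 in both genotypes. Mt2 was lower with DSS in WT and higher in KO. The median log2 ratio of the 9 genes was 0.08 in WT and -0.06 in KO, beside -0.02 and -0.13 for all genes.

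**Figure D1:**
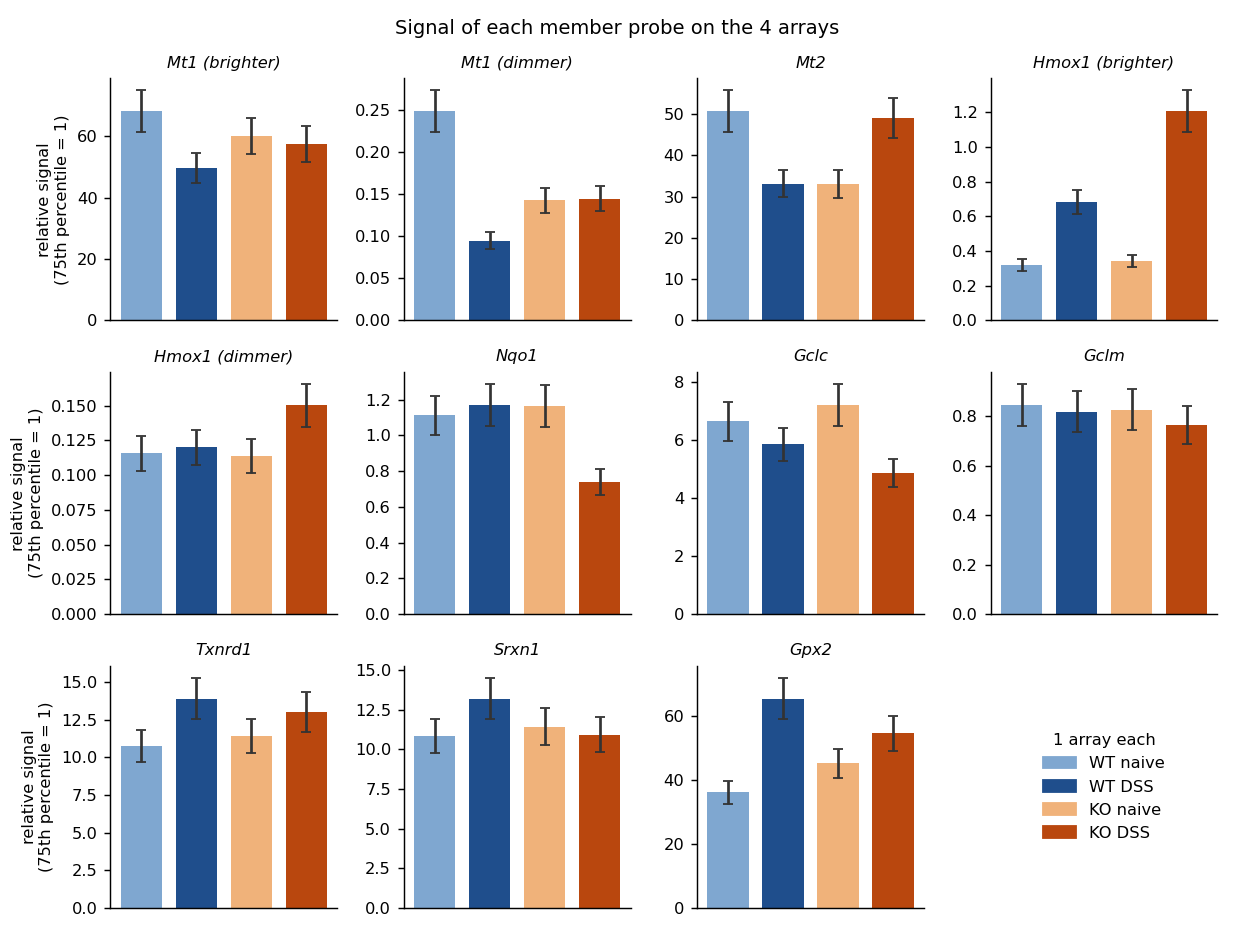
Relative signal (y axis, linear from 0, 75th percentile of the array = 1) of the 11 member probes on the 4 arrays, 1 bar per array, with the scanner's spot error as error bar. The brighter Hmox1 probe is higher on both DSS arrays and highest in DSS KO, Nqo1 is lowest in DSS KO, and Mt2 is high in naive WT and DSS KO.

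Because each treatment and each genotype holds 2 arrays, an additive limma fit over all genes served to test mean effects. For the mean DSS effect 0 of 22160 genes (0.0% in each direction) passed a Benjamini-Hochberg adjusted p under 0.05, while 4051 genes (18.3%) had an unadjusted p under 0.05, Hmox1 being the 1 member among them. With trend and robust variance estimates limma called 648 genes higher (2.92%) and 951 lower (4.29%). For the mean genotype effect it called 0 genes (0.0%), with 861 (3.89%) at an unadjusted p under 0.05 and no member among them, and 7 genes (0.0316%, all higher, no member) with trend and robust. The fit has 1 residual degree of freedom, which is the difference of the DSS responses between the genotypes. Its standard errors and p-values rest on that difference and on variance shared over genes, not on the spread between mice. A gene with unlike responses in the genotypes gets a larger error. The adjusted p of the other 8 members ran from 0.32 to 0.97 for DSS, and all 9 stood at 0.999 for genotype.

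Hmox1 encodes haem oxygenase 1, which breaks haem down to biliverdin, iron and carbon monoxide. Its brighter probe (chromosome 8, 77624207 to 77624266, mm9) had relative signals of 0.320 ± 0.0323 in naive WT, 0.343 ± 0.0346 in naive KO, 0.682 ± 0.0682 in DSS WT and 1.21 ± 0.121 in DSS KO (spot error, 1 array each). The naive arrays differed by less than the spot error, and both DSS arrays lay above them. The log2 ratio of DSS over naive was 1.09 in WT and 1.82 in KO, with 4.27% and 3.22% of all genes further up. The mean DSS effect was log2 1.45 ± 0.258 (SE), with an adjusted p of 0.21 in limma. It was 0.014 with trend and robust variance estimates and 0.025 on the genes well above background on all 4 arrays, where 2.64% of genes were called higher and 3.92% lower, and over all 8 alternatives it ran from 0.014 to 0.24. Between the DSS arrays, Hmox1 in KO exceeded WT 1.77-fold (log2 0.83), past its spot error but short of 2-fold, and 7.49% of genes had a higher ratio.

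The other Hmox1 probe, (chromosome 8, 77620797 to 77620856, mm9), did not show the difference in WT. It read 0.116 in naive WT, 0.120 in DSS WT, 0.114 in naive KO and 0.150 in DSS KO. Its log2 ratios of DSS over naive were 0.05 in WT and 0.40 in KO, each with a spot error of 0.22. With both probes averaged, Hmox1 stood at 0.57 in WT, short of 2-fold, and at 1.11 in KO. Both probes were well above background on all 4 arrays.

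Markers of red blood cells, which are rich in haem, and of macrophages, which clear it, were read on the same arrays. The summed signal of 8 measured red blood cell markers was 16.8 in naive WT, 14.8 in naive KO, 35.9 in DSS WT and 109 in DSS KO, and 5 of 8 passed 2-fold with DSS in WT and 8 of 8 in KO. The summed signal of 12 macrophage markers was 24.1, 24.9, 29.1 and 42.8 in the same order, with 3 of 12 past 2-fold in WT and 9 of 12 in KO. A sum follows its brightest probes, and Itgam alone read 12.9 in naive WT. The median log2 ratio of the macrophage markers with DSS was 0.66 in WT and 1.84 in KO. That of the red blood cell markers was 1.13 and 3.41. The macrophage list went both ways. Mertk, a receptor for the uptake of dying cells, was lower with DSS (log2 -0.94 in WT, -0.69 in KO, adjusted p = 0.22 in limma, 0.026 with trend and robust), and Itgam, an integrin chain, stood at -0.01 and -0.19. Cd163, the macrophage receptor for haemoglobin bound to haptoglobin, was well above background in DSS KO only, and Lyz2, a lysozyme of macrophages and neutrophils, was 0.40 in naive WT, 0.37 in naive KO, 0.91 in DSS WT and 2.04 in DSS KO. The part of these cells in the Hmox1 signal was not tested, and in tissue RNA more cells of a type and more RNA per cell cannot be told apart. Among 15804 named genes well above background on all arrays, the 3 with profiles nearest to Hmox1 over the 4 arrays were Krt14, Lyz1 and Il4ra, at distances of 0.04, 0.07 and 0.09 on the centred log2 scale. Their log2 ratios with DSS were 1.13 and 1.77 for Krt14, a keratin of stratified epithelium, 1.04 and 1.89 for Lyz1, the lysozyme of Paneth cells, and 1.15 and 1.86 for Il4ra, a receptor chain for interleukins 4 and 13, in WT and KO. With 4 points such likeness describes these arrays only.

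**Figure D2:**
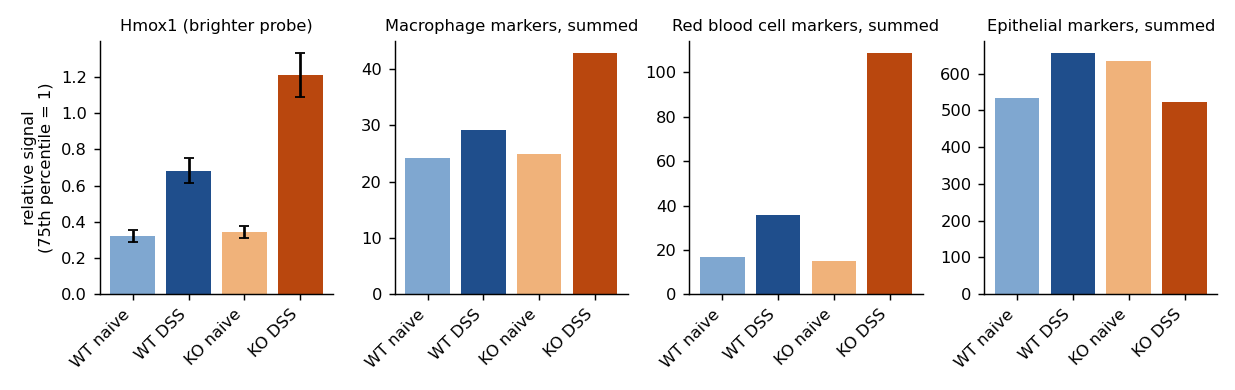
Relative signal (y axes, linear from 0) of the brighter Hmox1 probe with its spot error, and summed relative signal of 12 macrophage, 8 red blood cell and 12 epithelial markers, 1 bar per array. Hmox1 and the macrophage and red blood cell sums are all highest in DSS KO, while the epithelial sum is lowest there (522) and highest in DSS WT (655). A sum follows its brightest probes.

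Mt1 and Mt2 encode the metallothioneins of most tissues and lie side by side on chromosome 8, with their probes 6794 bases apart. The Mt1 probe (96704165 to 96704224, mm9) had relative signals of 68.3 in naive WT, 60.1 in naive KO, 49.7 in DSS WT and 57.5 in DSS KO. Mt2 (96697371 to 96697430, mm9) had 50.8 ± 5.08 in naive WT, 33.1 ± 3.31 in naive KO, 33.1 ± 3.31 in DSS WT and 49.0 ± 4.90 in DSS KO. For both genes naive WT was the highest array and DSS WT was below it. With DSS, Mt2 had log2 ratios of -0.62 in WT and 0.57 in KO, each with a spot error of 0.20, a difference of 1.19 ± 0.289 that the design cannot test. Mt1 had log2 ratios of -0.46 in WT and -0.06 in KO.

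Naive KO stood below naive WT for Mt2 (log2 -0.62, with 3.26% of all genes further down), and DSS KO stood above DSS WT (0.57). The brighter probes of the other 8 members were closer to WT in naive colon, where 1.04% of all genes were 2-fold lower and 1.13% 2-fold higher and no member passed. A further Mt1 probe, matched to a cDNA clone and not to the RefSeq transcript (96703844 to 96703903, mm9), read 0.248 in naive WT, 0.142 in naive KO, 0.0946 in DSS WT and 0.144 in DSS KO. It was 2.62-fold lower with DSS in WT and at log2 0.02 in KO. Both Mt1 probes were lower with DSS in WT; the log2 ratios were -0.46 and -1.39.

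The sequences before both start sites are shown because metallothionein genes are the textbook targets of MTF1, which binds short metal response elements. RefSeq promoter windows (GRCm38.p6) were found for 7 of the 9 members, and the 250 bases before the start were searched on both strands for the core of that element, TGCACNC or TGCGCNC. The Mt2 window (chr8:94172368-94172617, plus strand) held 3 matches and the Mt1 window (chr8:94178839-94179088, plus strand) 1 match, in capitals below. Such matches were not particular to the metallothionein genes: Gclm held 2, Srxn1 held 1, and the windows of Nqo1, Txnrd1 and Gpx2 held none. Of 32851 windows of this length 21.4% held at least 1 match and 1.26% at least 3. Bases outside the windows, also those after the annotated start, were not searched. A count is therefore not the full number of such elements at a gene.
Mt2: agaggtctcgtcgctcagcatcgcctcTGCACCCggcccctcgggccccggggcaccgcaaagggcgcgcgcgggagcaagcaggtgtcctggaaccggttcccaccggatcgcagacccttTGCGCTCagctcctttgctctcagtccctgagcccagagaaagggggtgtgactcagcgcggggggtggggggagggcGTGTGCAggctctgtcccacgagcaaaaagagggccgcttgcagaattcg
Mt1: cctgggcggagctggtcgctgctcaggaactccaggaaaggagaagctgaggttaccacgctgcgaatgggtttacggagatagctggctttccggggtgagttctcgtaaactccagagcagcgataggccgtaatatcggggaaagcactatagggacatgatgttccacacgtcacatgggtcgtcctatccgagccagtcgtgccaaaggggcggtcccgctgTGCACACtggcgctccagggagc
Mtf1 itself, the metal-sensing factor, had log2 ratios with DSS of -0.02 in WT and -0.19 in KO. A match in letters is no evidence of binding.

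Of 23 measured genes of zinc handling, 0 were 2-fold higher with DSS in either genotype. Slc30a10, a manganese exporter, was the 1 gene 2-fold lower, and only in KO (log2 -1.51, against -0.10 in WT), a difference that was not tested. The list's medians were -0.02 and -0.01. Slc39a10, a zinc importer, stood at 0.46 and 0.91, Slc39a9 at -0.40 and -0.99 and Mt4, the metallothionein of stratified epithelium, at 0.46 and 0.67. These probes were well above background on all 4 arrays but dim. Their relative signals ran from 0.089 to 0.17 for Slc39a10, 0.028 to 0.056 for Slc39a9 and 0.040 to 0.068 for Mt4.

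Glutathione is made from its amino acids by glutamate-cysteine ligase, whose catalytic subunit is Gclc and whose modifier subunit is Gclm, and then by Gss. Gclc (chromosome 9, 77641296 to 77641355, mm9) had relative signals of 6.64 in naive WT, 7.21 in naive KO, 5.84 in DSS WT and 4.86 in DSS KO. DSS KO was the lowest array, at a log2 ratio of -0.57 to naive KO, and in WT the ratio of -0.19 lay within the spot error. Gclm, whose listed probe span is longer than a probe (chromosome 3, 121962174 to 121964809, mm9), had 0.846, 0.826, 0.819 and 0.764 in the same order. No pair of arrays differed for Gclm by more than the spot error. Gss had log2 ratios of 0.29 in WT and -0.39 in KO.

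Among 15 measured genes of glutathione synthesis, recycling and cystine uptake, 1 in WT and 2 in KO passed 2-fold upward with DSS and 0 downward. Chac1, which degrades glutathione and is induced by amino acid and reticulum stress, stood at log2 1.03 (WT) and 1.21 (KO) (adjusted p = 0.21 in limma, 0.011 with trend and robust). Ggt5, a glutamyl transferase, stood at -0.06 in WT and 1.46 in KO. Slc7a11, the cystine carrier and a well-known NRF2 target, was well above background only in DSS KO, at least 1.93-fold over naive KO. Slc1a5, a glutamine carrier, was lower in both (log2 -0.66 and -0.95, adjusted p = 0.23 in limma, 0.028 with trend and robust).

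Txnrd1, thioredoxin reductase 1, recharges thioredoxin with electrons from NADPH, and Srxn1, sulfiredoxin, repairs overoxidised peroxiredoxins. Txnrd1 (chromosome 10, 82360230 to 82360289, mm9) had relative signals of 10.8 in naive WT, 11.4 in naive KO, 13.9 in DSS WT and 13.01 in DSS KO. Both DSS arrays were above both naive arrays, at log2 ratios of 0.37 in WT and 0.19 in KO, of which the first exceeded the spot error of 0.20. Srxn1 (chromosome 2, 151937009 to 151937068, mm9) had 10.8, 11.4, 13.2 and 10.9 in the same order. Here DSS WT alone stood apart, at a log2 ratio of 0.28, and KO was at -0.07.

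Txnrd1 has 3 RefSeq windows, one of which (chr10:82858956-82859205, plus strand) holds the core of the antioxidant response element, TGACNNNGC, to which NRF2 with a small MAF protein binds. It is shown with the match, on the minus strand, in capitals.
Txnrd1: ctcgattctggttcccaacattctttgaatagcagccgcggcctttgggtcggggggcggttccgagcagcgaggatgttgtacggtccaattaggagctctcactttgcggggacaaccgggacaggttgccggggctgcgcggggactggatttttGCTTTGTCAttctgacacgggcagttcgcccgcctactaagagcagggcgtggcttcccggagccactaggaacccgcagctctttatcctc
The Gclm and Mt2 windows held 1 match each, in Mt2 starting 79 bases before the start site, and 10.2% of all windows held at least 1. The windows of Srxn1, Nqo1, Gpx2 and Mt1 held none of these letters, which says nothing about the factor.

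Thioredoxins and peroxiredoxins, 12 measured, had 0 genes past 2-fold with DSS in either direction, and its median was 0.33 for WT and -0.07 for KO. Prdx4, the peroxiredoxin of the secretory pathway, stood at 0.54 and 0.17, and Txnip, which binds and blocks thioredoxin, at -0.32 and -0.65. Prdx6, which also has phospholipase A2 activity, stood at -0.11 and -0.67, and Txnrd3 at -0.21 and -0.92.

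Nqo1 encodes a quinone reductase that is a standard readout of NRF2. Its probe (chromosome 8, 109912440 to 109912499, mm9) had relative signals of 1.11 ± 0.111 in naive WT, 1.17 ± 0.117 in naive KO, 1.17 ± 0.117 in DSS WT and 0.740 ± 0.0740 in DSS KO. The first 3 arrays lay within their spot errors and DSS KO was below all of them. It was 1.58-fold lower than DSS WT (log2 -0.66), and 6.8% of all genes had a lower ratio. With DSS, no member was 2-fold apart between the genotypes, where 5.06% of all genes were 2-fold higher in KO and 2.2% lower.

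Of 12 other quinone and aldehyde reductases measured, 3 were 2-fold lower with DSS in KO and 0 in WT: Cbr3, a carbonyl reductase (log2 -1.17 in KO, -0.09 in WT), Aldh1a1, which makes retinoic acid (-1.32 and -0.36), and Akr1b7, an aldo-keto reductase (-1.29 and 0.27). The other 9 were short of 2-fold in both, with Nqo2, a second quinone reductase, at 0.36 in KO and 0.63 in WT and Akr1b10 at 0.32 and 0.15. The list's median was -0.44 in KO and 0.00 in WT, and the difference was not tested. Ephx1, an epoxide hydrolase, was lower in both genotypes (-0.66 and -0.83, adjusted p = 0.23 in limma, 0.029 with trend and robust). The summed signal of the epithelial markers was 534 in naive WT, 634 in naive KO, 655 in DSS WT and 522 in DSS KO. Their median log2 ratio with DSS was 0.28 in WT and -0.28 in KO, with 0 of 12 past 2-fold, and its part in the lower reductase values was not tested. Smooth muscle markers had medians of -0.38 and -0.80.

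Gpx2 (chromosome 12, 77893402 to 77893461, mm9), the epithelial glutathione peroxidase, had relative signals of 36.1 ± 3.61 in naive WT, 45.1 ± 4.51 in naive KO, 65.4 ± 6.54 in DSS WT and 54.6 ± 5.46 in DSS KO. Both DSS arrays were above both naive arrays. The log2 ratio with DSS was 0.86 in WT, with 5.87% of all genes further up, and 0.27 in KO, and the difference of -0.58 was not tested. The mean DSS effect was log2 0.57 ± 0.228 (SE), with an adjusted p of 0.32 in limma.

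**Figure D3:**
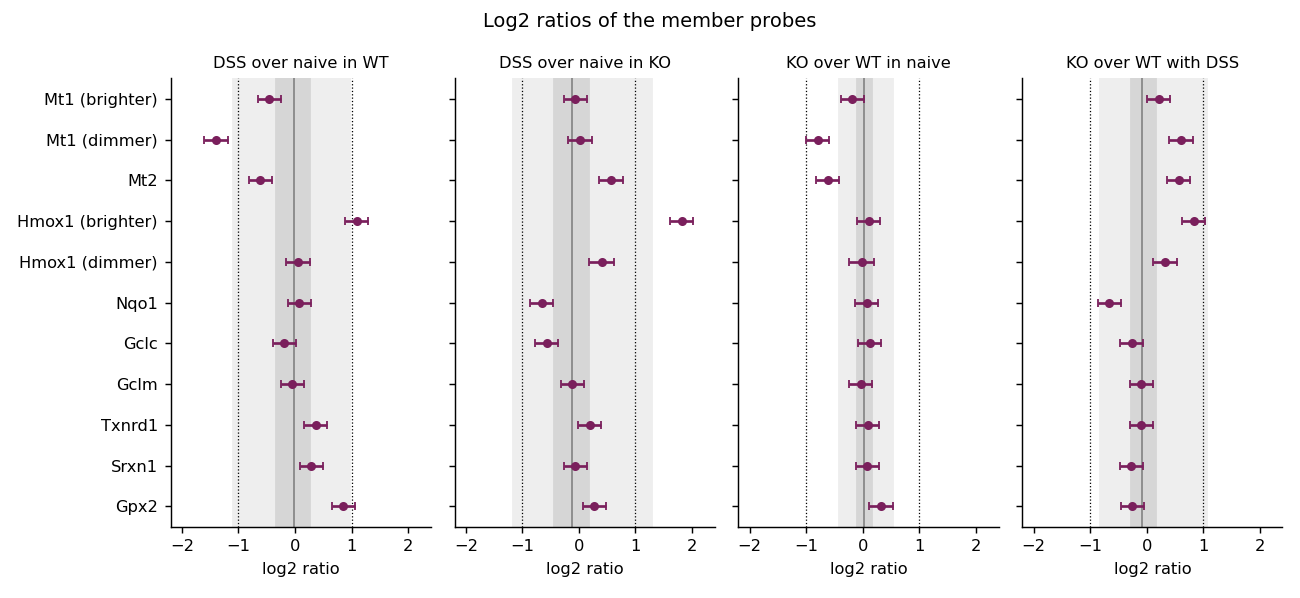
Log2 ratios (x axes) of the 11 member probes (y axis) in the 4 comparisons, with spot errors as bars. Grey bands hold the middle 50% and the middle 90% of all 22160 genes, the grey line is their median and dotted lines mark 2-fold: only the brighter Hmox1 probe with DSS in both genotypes and the dimmer Mt1 probe with DSS in WT lie past 2-fold.

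Among peroxide and superoxide enzymes other than Gpx2 the highest ratios were in KO. Of 12 measured, 1 in WT and 3 in KO passed 2-fold upward with DSS and 0 downward. Sod3, the extracellular superoxide dismutase, stood at log2 1.05 in WT and 2.17 in KO, and Gpx3, the peroxidase of plasma, at 0.31 and 2.02. Gpx7 (0.65 and 1.22) and Gpx8 (0.20 and 0.99) work in the endoplasmic reticulum. The cellular enzymes Sod1 (0.25 and -0.31), Sod2 (0.32 and 0.25), Cat (-0.16 and -0.17) and Gpx1 (0.55 and 0.49) were short of 2-fold in both. The median of 10 fibroblast markers was -0.02 for WT and 1.14 for KO, with 0 and 6 past 2-fold, and their part in the Sod3 and Gpx3 values was not tested.

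Of 12 measured NRF2 regulators and partners 0 passed 2-fold in either genotype, the median being -0.17 for WT and -0.21 for KO. Nfe2l2 had relative signals of 13.06 in naive WT, 13 in naive KO, 11.6 in DSS WT and 10.9 in DSS KO. Log2 ratios of its inhibitor Keap1 were -0.30 and -0.33, and those of Bach1, which represses Hmox1, -0.03 and -0.09. The small MAF partner genes went both ways, with Mafg at -0.52 and -0.29 and Maff at 0.45 and 0.33. Bach2 stood at -0.53 and -0.84 and the stress-induced sestrin Sesn2 at -0.22 and -0.54. Enzymes that supply NADPH had 0 of 10 past 2-fold, with medians of 0.26 and -0.18. Among them G6pdx (0.32 and 0.03) and Pgd (0.36 and 0.01) belong to the pentose phosphate route, Mthfd1 (-0.10 and -0.37) to folate metabolism, and Nnt (-0.60 and -0.47) is the mitochondrial transhydrogenase.

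Haem and iron genes held the highest ratios of the pathway lists. Of 18 measured, 4 were 2-fold higher with DSS in each genotype, and Lrp1, a receptor for haem bound to haemopexin, was 2-fold lower in WT (log2 -1.11, against -0.15 in KO). Hp, haptoglobin, which binds free haemoglobin, stood at log2 5.01 (WT) and 6.26 (KO) (adjusted p = 0.20 in limma, 0.012 with trend and robust), and Cp, the ferroxidase ceruloplasmin, at 1.28 and 3.26. Slc11a1, a metal carrier of phagocytes, stood at 1.07 and 2.66, and Alas2, the haem synthesis enzyme of red cell precursors, at 1.098 and 3.745. The genes that follow Hmox1 in haem breakdown and iron storage were short of 2-fold: Blvra at 0.44 and 0.43, Blvrb at 0.29 and 0.16, Fth1 at 0.26 and -0.07, Ftl1 at 0.31 and -0.33. Hmox2, the constitutive haem oxygenase, stood at 0.17 and 0.13. Neutrophil markers, 6 of 11 past 2-fold in each genotype, had medians of 1.18 and 2.003. The KO median is the ratio of Mpo, which was well above background in DSS KO only, at least 1.12-fold over naive KO. Of the 11 markers, 6 were well above background on all 4 arrays. Csf3r (-0.69 and -0.43) and Elane (-0.10 and -0.34) were lower with DSS.

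**Figure D4:**
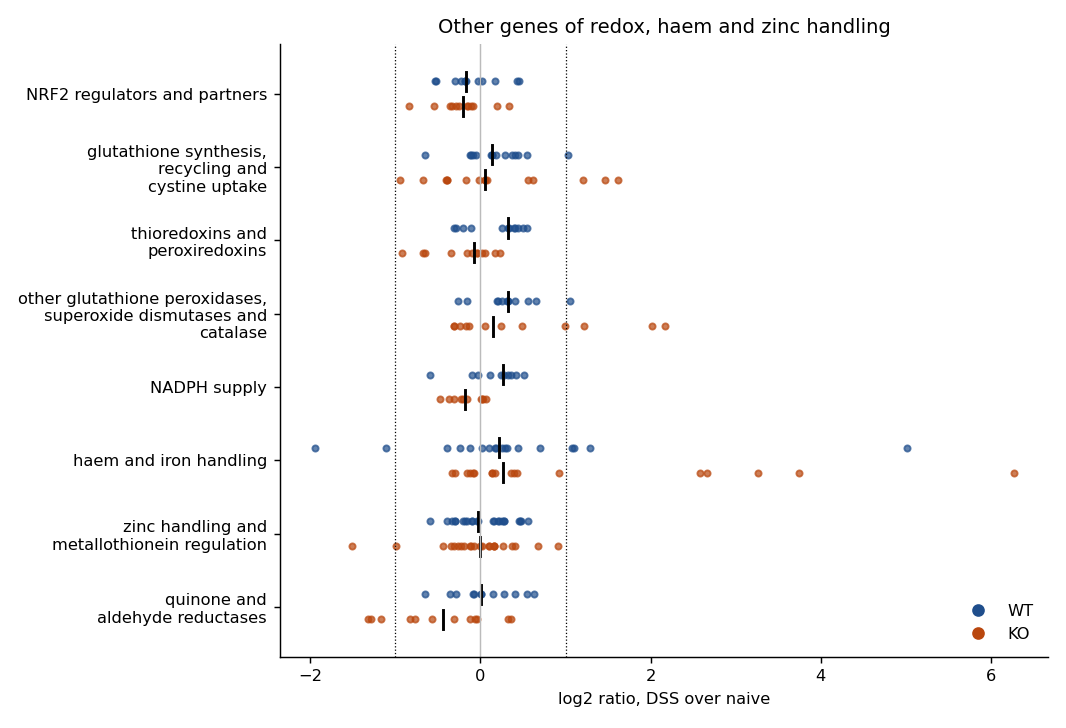
Log2 ratio of DSS over naive (x axis) for each gene of the 8 pathway lists in WT (blue) and KO (orange), with the list median as a black bar and 2-fold as dotted lines. Most genes lie within 2-fold, and haem and iron handling reaches the furthest, with Hp at 5.01 and 6.26. Signals not well above background are plotted as measured.

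Over all 8 lists, 114 of 118 genes were measured. In WT, 6 of these (5.26%) were 2-fold higher with DSS and 1 (0.877%) lower, beside 3.44% and 5.14% of all genes. In KO, 9 (7.89%) were higher and 4 (3.51%) lower, beside 5.67% and 5.0%. In naive colon 0 of 114 were 2-fold apart between the genotypes, where all genes had 1.13% up in KO and 1.04% down. With DSS, KO passed 2-fold above WT for 7 (6.14%) and below it for 3 (2.63%). The shares of all genes there were close, at 5.06% and 2.2%. The median log2 ratio of KO over WT was 0.03 in naive and -0.14 with DSS, beside 0.02 and -0.09 for all genes, and that of the 9 members was 0.08 and -0.10. Of markers of tissues around the colon, 11 of 13 for pancreatic acinar cells were 2-fold higher with DSS in WT (median 5.25), and in KO 8 were higher and 1 lower (3.19). For adipocytes 6 of 10 were higher in WT (1.51) and 5 in KO (1.29). Hepatocyte markers showed no common direction, with 1 of 7 higher and 1 lower in WT (-0.17) and 2 higher and 3 lower in KO (-0.72). Their part in the member values was not tested.

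**Figure D5:**
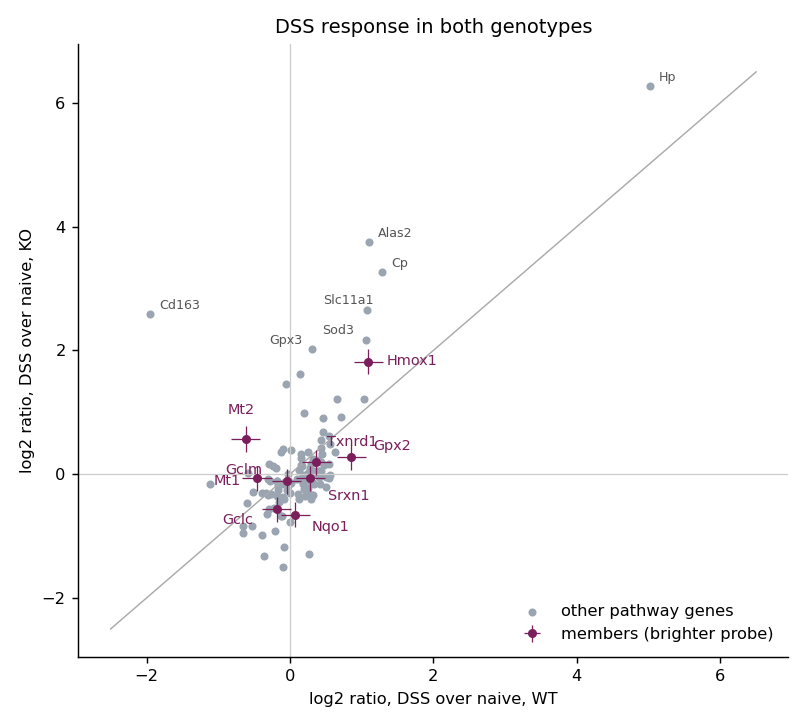
Log2 ratio of DSS over naive in WT (x axis) and in KO (y axis) for the 9 members (brighter probe, purple, with spot errors) and 114 other pathway genes (grey), with the line of equal response. Hmox1 lies above the line at 1.09 and 1.82, Mt2 in the upper left at -0.62 and 0.57, and Gpx2 below the line at 0.86 and 0.27. Cd163, at the far left, was well above background in DSS KO only, so both its ratios rest on dim signals. Dim values are plotted as measured.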

How the data were processed

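RNA of mouse colon was measured on 4 single-colour Agilent arrays on 1 slide, 1 per group, each from 200 ng of RNA mixed from 3 mice, per the labels. The deposited scanner files give an intensity per spot, background-subtracted and detrended by Agilent Feature Extraction 11.5.1.1, per the submitters' processing notes, with coordinates on mm9, per the file headers. The deposited series table gives a signal per spot, which equals the intensity over a constant near the array's 75th percentile, per the values. Flags (0 or 1) marked spots well above background.

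Control spots and 129 to 136 outlier spots per array were left out, and 0 spots were saturated. Log2 intensity was set relative to the 75th percentile, and repeat spots were averaged (median SD 0.0574 to 0.0635, log2). Of 39429 probes, 28734 passed the scanner's flag for this on 1 or more arrays and were kept. Genes were named by RefSeq accession (27597 probes), symbol (3488), older symbol (393) or as in the file (7951), and represented by their brightest probe. For a 2-fold call the higher array had to be well above background, and a dim lower value was replaced by the array's lowest well-measured signal ("at least"). Limma 3.58.1 in R 4.3.3 fitted treatment and genotype. On simulated data with 22160 genes the share of simulated mean DSS effects it recovered was 0% for a log2 size of 1 or 2, 64% for 4 and 80% for 6, and it made 1 false call.

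The members and lists were chosen with earlier results of these data known. Named were all members, 4 genes per pathway list with the largest mean DSS ratio, 4 regulators (Nfe2l2, Keap1, Bach1, Mtf1) and 3 nearest profiles. Other list genes given with values (Gss, Lrp1, Sod1, Sod2, Cat, Gpx1, Blvra, Blvrb, Fth1, Ftl1, Hmox2, Cd163, Lyz2, Mertk, Itgam, Nqo2, Akr1b10, Mpo, Csf3r, Elane) were chosen after their values were seen. Alternatives were median scaling, quantile normalization, normexp (offset 50), the series table, other filters on dim probes, the mean of all probes, dim values without the bound, a 1.5-fold threshold, and trend and robust variance estimates.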

Additional observations from a re-analysis of the deposited data

Results flagged for a closer look

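Mt2, one of the 2 main metallothionein genes, is listed because its response to DSS pointed in opposite directions in the genotypes, each by more than 2 times its spot error. The log2 ratio of DSS over naive was -0.62 in WT and 0.57 in KO, a difference of 1.19 with a spot error of 0.289. The difference was not tested, since 1 array per group leaves no residual degree of freedom. It kept its opposite signs under the 7 alternatives that recompute the ratio, from -0.85 to -0.51 in WT and from 0.57 to 0.67 in KO. Mt2 has 1 probe, well above background on every array, so the filters on dim probes and the mean of all probes could not change it. The series table differs from the main scaling only by a constant per array. The alternatives able to change the ratio were median scaling, quantile normalization and normexp.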

How the results depend on the processing

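The count of 1 member past 2-fold with DSS in WT went to 0 when all probes of a gene were averaged, because the dimmer Hmox1 probe enters. At a 1.5-fold threshold the member counts for DSS were 3 in WT (2 up, 1 down) and 2 in KO (1 up, 1 down). Of all 22160 genes, 1760 passed it upward and 2829 downward in WT, against 2224 and 3463 in KO. For KO over WT the member counts were 1 in naive (down) and 2 with DSS (1 up, 1 down). Among all genes 711 passed upward and 497 downward in naive, against 2310 and 1251 with DSS. Limma called 1 member (Hmox1) for the mean DSS effect on genes well above background on all arrays and 1 with trend and robust, in place of 0. Mt2 kept its opposite signs, 80 of the 87 recomputed summary values counted as unchanged, and no member past 2-fold changed sign. The members' median with DSS in KO went from -0.06 to 0.08 under quantile normalization. Of the values of single members, 241 counted as unchanged and 11 as moved. Many of these could not move. All 9 members were well above background on every array, so filters and bounds for dim probes left their ratios, medians and 2-fold counts fixed. Averaging probes could change only the ratios of Mt1 and Hmox1, which have 2 probes each. Under quantile normalization Gpx2 with DSS in WT fell from 0.86 to 0.61, and its KO over WT ratio with DSS went from -0.26 to -0.04. There Srxn1 and Txnrd1 with DSS in WT stood at 0.10 and 0.18, within the spot error of 0.20. For DSS, limma called 1269 of 19324 genes well above background on all arrays and 1599 of 22160 with trend and robust, against 0. It called 141 of 22160 with normexp and 35 of 30103 with no filter. Counts at 2-fold among 22160 genes were 1901 (DSS in WT), 2365 (DSS in KO), 480 (naive) and 1610 (KO over WT with DSS). With normexp they were 1040, 1525, 252 and 865. On the 19324 genes well above background on all arrays they were 1262, 1718, 151 and 980. With dim values unbounded, 736 of 22160 passed in naive. At 1.5-fold the counts among 22160 genes were 4589, 5687, 1208 and 3561. Median scaling moved the median of all genes by 0.10 (log2) for DSS in WT.

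No paired analysis was possible because each group holds 1 array. Leaving out an array would leave no residual degree of freedom. Precision is limited by having 1 array per group. Effects near the size of Hmox1 were not recovered on simulated data with few changed genes, by limma without trend and robust.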
